A study of Mus musculus with 12 samples.

Results

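The myosin heavy and light chains of the heart were followed through 3 knockout and 3 control libraries, as the 9 genes Myh6, Myh7, Myh7b, Myl1, Myl2, Myl3, Myl4, Myl7 and Mylk3. They were found by symbol, each as a single locus that carries no other gene name, among 44450 listed loci. All 9 passed the filter of at least 1 FPKM (fragments mapped to a locus, per length of its transcript and per size of the library) in at least 3 of the 6 libraries, and 12181 loci in all did so. Per the labels, the libraries were made from total RNA of whole hearts of C57BL/6N mice aged 11 weeks. Knockout mice were Mrpp3 loxP/loxP and also carried Ckmm, a Cre transgene under the muscle creatine kinase promoter, and control mice were Mrpp3 loxP/loxP without it. Both groups thus carry the floxed alleles, Cre is present only in the knockouts, and its own effect cannot be told apart from that of the deletion. MRPP3 is a nuclease that helps to free tRNAs from long mitochondrial transcripts, and the comparison asks how RNA in the heart differs without it. A further 6 libraries of mitochondrial RNA ends were not analysed here.

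Cardiac muscle shortens when myosin heads on the thick filament pull on actin. Each heavy chain carries an essential and a regulatory light chain, and each chain comes in isoforms that differ between chambers and ages. In the adult mouse, Myh6 encodes the fast alpha heavy chain of both chambers, while Myh7, the slower beta chain, is the main form of the fetal ventricle and is known to return under load. Myl2 (regulatory) and Myl3 (essential) are the ventricular light chains, and Myl7 and Myl4 are their atrial counterparts, of which Myl4 is also made in the fetal ventricle. Myl1 is the essential light chain of fast skeletal muscle, and Mylk3 encodes the cardiac kinase that phosphorylates Myl2. Myh7b is a further sarcomeric heavy chain gene.

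The 3 heavy chain genes also carry a family of microRNAs known in mice to take part in the control of myosin isoforms. The mature sequences are shown because the 3 host genes are among the members described below and their mature strands are closely related. They are from RefSeq (GRCm38.p6), written 5′ to 3′ with the seed, bases 2 to 8, in capitals. Each lies within its host gene.
miR-208a-3p, in Myh6, chr14:54949072-54949093, minus strand: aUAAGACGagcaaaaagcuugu
miR-208b-3p, in Myh7, chr14:54975710-54975731, minus strand: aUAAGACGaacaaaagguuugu
miR-499-5p, in Myh7b, chr2:155622893-155622913, plus strand: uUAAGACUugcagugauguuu
The seed UAAGACG is shared by miR-208a-3p and miR-208b-3p, which have 19 of 22 bases in common, and miR-499-5p has the seed UAAGACU. The loci Mir208a, Mir208b and Mir499 were listed at 0 in every library, so these files hold a value for the host transcripts and none for the microRNAs.

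Promoter windows of 300 bases (250 before and 50 from a RefSeq start, GRCm38.p6, transcribed strand) are given for the neighbouring heavy chain genes and for a ventricular and an atrial light chain gene. Capitals mark the TATA box (TATANA), the M-CAT element bound by TEAD factors (CATTCC) and the CArG box bound by SRF, searched on both strands.
Myh6, chr14:54966558-54966857, minus strand: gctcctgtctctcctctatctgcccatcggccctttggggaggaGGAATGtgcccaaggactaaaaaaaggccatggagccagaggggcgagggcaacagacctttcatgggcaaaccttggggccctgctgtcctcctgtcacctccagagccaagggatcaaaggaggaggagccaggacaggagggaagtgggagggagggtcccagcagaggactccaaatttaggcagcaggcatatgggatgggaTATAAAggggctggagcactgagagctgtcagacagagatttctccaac
Myh7, chr14:54994500-54994799, minus strand: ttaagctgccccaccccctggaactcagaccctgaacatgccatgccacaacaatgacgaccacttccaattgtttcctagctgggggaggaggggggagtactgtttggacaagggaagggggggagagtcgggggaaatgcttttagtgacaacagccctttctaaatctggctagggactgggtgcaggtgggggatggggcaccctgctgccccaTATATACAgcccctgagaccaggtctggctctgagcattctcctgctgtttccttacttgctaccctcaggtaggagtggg
Myl3, chr9:110763428-110763727, plus strand: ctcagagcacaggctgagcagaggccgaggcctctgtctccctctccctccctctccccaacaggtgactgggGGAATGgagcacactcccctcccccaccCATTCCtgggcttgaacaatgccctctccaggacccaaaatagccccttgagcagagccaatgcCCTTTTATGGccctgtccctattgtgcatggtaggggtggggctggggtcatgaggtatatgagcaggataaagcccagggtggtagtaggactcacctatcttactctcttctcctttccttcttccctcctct
Myl7, chr11:5898733-5899032, minus strand: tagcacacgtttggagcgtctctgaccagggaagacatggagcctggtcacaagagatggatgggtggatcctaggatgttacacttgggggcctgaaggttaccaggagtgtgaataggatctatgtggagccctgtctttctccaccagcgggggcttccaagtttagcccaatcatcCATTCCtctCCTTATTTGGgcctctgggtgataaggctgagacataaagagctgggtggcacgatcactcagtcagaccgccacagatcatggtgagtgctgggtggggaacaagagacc
The Myl3 and Myl7 windows each held 1 CArG box, a motif present in 1.63% of 32851 windows of this length. M-CAT, present in 14.7% of windows, occurred once in the Myh6 and Myl7 windows and at 2 places in the Myl3 window. The printed Myh7 window held none. Another RefSeq window of Myh7 (chr14:54994577-54994876), not printed, held 1 M-CAT and no TATA match. The printed Myh7 window held 2 overlapping TATA matches and the Myh6 window 1, against 24.7% of windows with any. Those of Myh7 begin 31 and 29 bases before the start used, whereas that of Myh6 begins 1 base after it. The Myh6 window, up to 54966857, lies within the Myh6 span, whose 5′ end is at 54968017. The start used for Myh6 is thus not that 5′ end. The MEF2 box, searched the same way and present in 3.19% of windows, was found in none of the 12 windows of the 9 genes. A match is a stretch of letters and not a measured binding site.

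The deleted gene and the chamber of origin were checked before the family was compared. Prorp, the current symbol of Mrpp3 (listed as 1110008L16Rik), stood at 0.441, 0.701 and 0.555 FPKM in knockout replicates 1 to 3, against 3.49, 2.64 and 3.23 FPKM in control replicates 1 to 3 (log2 fold change -1.77, limma adjusted p = 0.000628). Heart muscle markers outside the family were abundant in every library, with a sum over 14 loci of 11136 to 20883 FPKM in knockouts and 32580 to 37066 FPKM in controls. Knockout replicate 2 held far more atrial and blood RNA than the others. All but 1 of 16 atrial loci outside the family (15 listed genes) lay above every control there, against 9 in knockout replicate 1 and 4 in knockout replicate 3. Below every control lay 5 of these loci in knockout replicate 1, none in knockout replicate 2 and 6 in knockout replicate 3, among them the potassium channel genes Kcnj3 and Kcnj5 in replicates 1 and 3. Their summed level was 333, 1725 and 462 FPKM in knockout replicates 1 to 3, against 212 to 234 FPKM in controls. The share of all loci above or below every control in a single library was not computed. The counts of atrial loci are therefore not read as a shift in any library. For knockout replicate 2 the excess rests on the summed level, and some loci there were barely above the controls, such as Kcnj3 (31.1 FPKM, against at most 30 FPKM). In knockout replicate 3 the excess of the summed level was nearly all in Pam, a peptide-processing enzyme (439 FPKM, against 148 to 165 FPKM in controls). Bmp10, an atrial growth factor, had 4.19 FPKM there, against 0 to 0.0577 FPKM in controls, while Sln and Hamp were at 0, as in 2 of the 3 controls. The labels name whole hearts, which include atria. Yet Myl7 was at 0 to 1.90 FPKM in controls and 0.0961 FPKM in knockout replicate 3, while Myl2 was at 4683 FPKM or more in these libraries. How much atrial tissue each library held is not stated. Red cell markers summed to 21901 FPKM in knockout replicate 2, 622 and 2012 FPKM in the other knockouts and 1572 to 2903 FPKM in controls. For the family, and for each gene or list below where it matters to a call, values are therefore also given without knockout replicate 2. The files do not state depth. From the steps between the lowest values, the knockout libraries were 2.06 to 2.56 times and the other controls 1.32 and 1.35 times as deep as control replicate 1, so a 0 is less certain in controls.

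**Figure D1:**
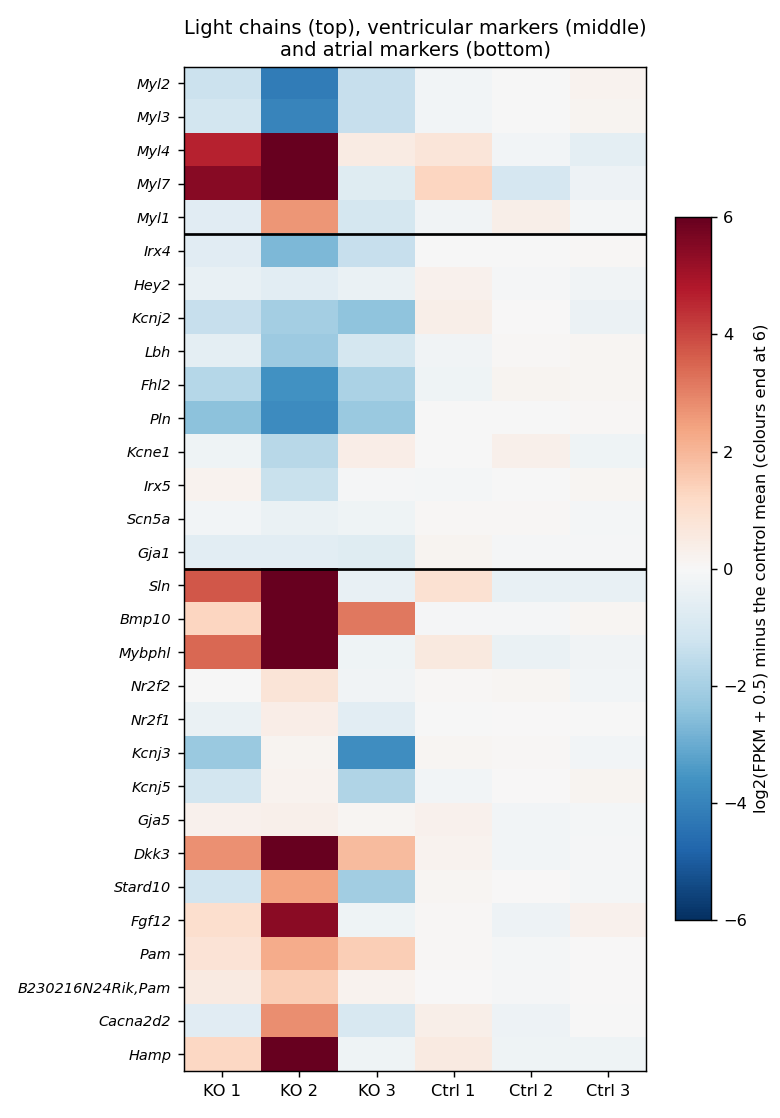
Each row is a locus and each column a library (knockouts left, controls right); colour is log2(FPKM + 0.5) minus the mean of the 3 controls, for light chains (top), ventricular markers (middle) and all but 1 of the atrial marker loci (bottom). Knockout replicate 2 is red for Myl4, Myl7 and most atrial markers and blue for Myl2, Myl3 and the ventricular markers, knockout replicate 1 is less red for Myl4, Myl7, Sln and Mybphl, and knockout replicate 3 is not red for Myl7, Sln or Mybphl but is for Bmp10 and Dkk3.

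Across the family, the adult heavy chain Myh6, the heavy chain gene Myh7b, the ventricular light chain Myl3 and the light chain kinase Mylk3 were lower in the knockout. Of the 9 genes, 4 were lower, 0 higher and 5 did not pass (limma on log2(FPKM + 0.5), Benjamini-Hochberg adjusted over all 12181 loci, threshold 0.05). Over all loci 19.5% were lower and 16.1% higher by the same test, 35.7% in either direction. At an unadjusted p under 0.05, 5 of the 9 were lower and 2 higher, beside 25.5% lower and 21.3% higher over all loci. With array weights, 5 were lower and 3 higher after adjustment, beside 27.6% lower and 23.5% higher over all loci. Without knockout replicate 2, 6 were lower (Myh6, Myh7b, Myl1, Myl2, Myl3 and Mylk3), 1 was higher (Myh7) and 2 did not pass, beside 19.6% lower and 17.7% higher over all loci (37.3% in either direction). The median log2 fold change of the family was -0.98, or -0.92 without that library, against -0.02 over all loci in both fits. For 5 of the 9, every knockout lay below every control, as for 28.7% of all loci, and for none did every knockout lie above, as for 23.6% of all loci. In RNA of heart tissue, fewer heart muscle cells and less RNA per cell cannot be told apart.

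**Figure D2:**
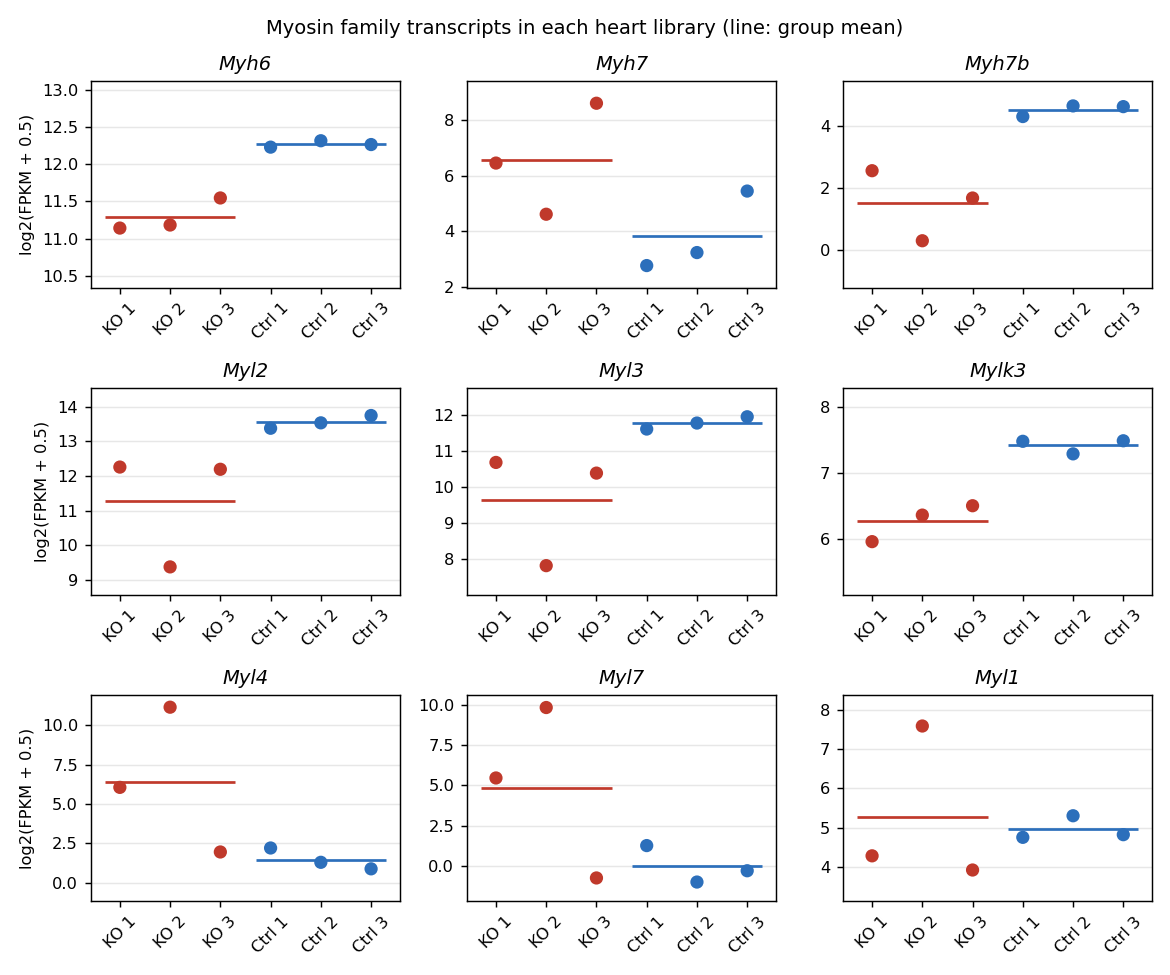
Points are single libraries, knockouts (red) left and controls (blue) right, on a log2(FPKM + 0.5) axis that differs between panels; lines are group means. All knockouts lie below all controls for Myh6, Myh7b, Myl2, Myl3 and Mylk3, and knockout replicate 2 stands apart for Myl2, Myl3, Myl4, Myl7 and Myl1.

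Myh6 (locus XLOC_012128, chr14:54941921-54968017 of GRCm38.p6) had 2262, 2327 and 2992 FPKM in knockout replicates 1 to 3, against 4797, 5091 and 4914 FPKM in control replicates 1 to 3. The groups did not overlap, and the atrial-rich knockout replicate 2 lay between the other knockouts. Mean levels were 2527 ± 404 FPKM in knockouts and 4934 ± 148 FPKM in controls (SD, n = 3 each), and the log2 fold change was -0.98, with a 95% confidence interval of -1.60 to -0.35 (SE 0.27, limma adjusted p = 0.0265). It was -0.92 without knockout replicate 2 (limma adjusted p = 0.0105). The call was lost without control replicate 1, 2 or 3 or knockout replicate 1 (limma adjusted p = 0.0541, 0.113, 0.0799 and 0.113). After quantile normalization the log2 fold change was -0.37 (adjusted p = 0.151).

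Myh7 (XLOC_012130, chr14:54970684-54994626) lies on the same strand as Myh6, with 2666 bases in RefSeq between its 3′ end and the 5′ end of Myh6. Its levels were uneven. Myh7 had 87.4, 24.0 and 391 FPKM in knockout replicates 1 to 3, against 6.30, 8.91 and 43.2 FPKM in control replicates 1 to 3. The groups overlapped, since control replicate 3 exceeded knockout replicate 2, and knockout replicate 3 was highest. The log2 fold change was 2.74 (SE 1.05, 95% confidence interval 0.30 to 5.19) and did not pass (limma adjusted p = 0.0776). Without knockout replicate 2 it passed, at 3.72 (SE 0.90, limma adjusted p = 0.0196). It also passed when each library was scaled to the same sum of FPKM (3.00, adjusted p = 0.0485), a scaling that moved the median of all loci to 0.20. Even so Myh7 stayed the minor chain, and the coding sequences of Myh6 and Myh7 are much alike, so how fragments that match both were assigned could weigh on its low values. That assignment is not given in the sources used here.

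The beta chain's share of Myh6 plus Myh7, a ratio within a library that needs no scaling, separated the groups where the Myh7 level did not. Myh7 made up 3.72%, 1.02% and 11.5% of the summed FPKM in knockout replicates 1 to 3, against 0.131%, 0.175% and 0.872% in control replicates 1 to 3. The lowest knockout was above the highest control, by a small margin. The mean was 5.43 ± 5.47% in knockouts and 0.393 ± 0.416% in controls (SD, n = 3 each), so the spread between knockouts was as large as their mean. Without knockout replicate 2 the knockout mean was 7.63%, and without knockout replicate 3 it was 2.37%.

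Mhrt, a long noncoding RNA known in mice as Myheart and transcribed antisense to Myh7, fell. It had 19.4, 24.4 and 7.91 FPKM in knockout replicates 1 to 3, against 84.3, 73.7 and 59.2 FPKM in control replicates 1 to 3 (log2 fold change -2.16, SE 0.38, limma adjusted p = 0.00501, or -2.48 and adjusted p = 0.0029 without knockout replicate 2). In the knockouts the library with most Myh7, replicate 3, had least Mhrt. The same held among controls, where replicate 3 had most Myh7 and least Mhrt. Mhrt over Myh7 was 0.222, 1.02 and 0.0202 in knockouts and 13.4, 8.28 and 1.37 in controls. The RefSeq spans of Mhrt and Myh7 share 3666 bases and the use of strand is not given, so reads from the shared stretch may not be told apart.

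Myh7b (XLOC_019849, chr2:155611243-155634307) showed the largest fall on the log2 scale among the members that passed. It had 5.42, 0.742 and 2.72 FPKM in knockout replicates 1 to 3, against 19.3, 24.6 and 24.2 FPKM in control replicates 1 to 3. All knockouts lay well below all controls, with knockout replicate 2 lowest. Mean levels were 2.96 ± 2.35 FPKM in knockouts and 22.7 ± 2.97 FPKM in controls (SD, n = 3 each), and the log2 fold change was -3.01 (SE 0.50, adjusted p = 0.00405 by limma). It was -2.40 without knockout replicate 2 (SE 0.26, adjusted p = 0.00124). The 3 heavy chains together summed to 2355, 2351 and 3386 FPKM in knockouts and 4823, 5124 and 4981 FPKM in controls, and the 3 knockouts lay below the 3 controls.

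The ventricular light chains were lower in every knockout and kept nearly the same ratio to each other. Myl2 (XLOC_028694, chr5:122092724-122113473), the most abundant member, had 4897, 662 and 4683 FPKM in knockout replicates 1 to 3, against 10657, 11877 and 13756 FPKM in control replicates 1 to 3. Myl3 (XLOC_038821, chr9:110763678-110769802) had 1637, 226 and 1334 FPKM in knockouts, against 3105, 3483 and 3929 FPKM in controls. No knockout overlapped a control for either gene, and the atrial-rich knockout replicate 2 was by far the lowest for both. Myl2 over Myl3 was 2.99, 2.93 and 3.51 in knockouts and 3.43, 3.41 and 3.50 in controls, nearly the same in the library with least of both.

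With all libraries, the log2 fold change of Myl3 was -2.14 (SE 0.70, adjusted p = 0.048 by limma) and that of Myl2 was -2.28 (SE 0.76, adjusted p = 0.0506), which missed the threshold. Without knockout replicate 2 the fold changes shrank to -1.24 for Myl3 (SE 0.18, adjusted p = 0.00338) and -1.33 for Myl2 (SE 0.21, adjusted p = 0.00424), and both passed. Over knockout replicates 1 and 3 alone, Myl3 was thus lower by 2.36-fold and Myl2 by 2.51-fold. Atrial genes differed from controls in these libraries too, but in both directions. Myl7 was at 43.5 FPKM in knockout replicate 1 and 0.0961 FPKM in knockout replicate 3, where Bmp10 was at 4.19 FPKM. Of 16 atrial loci outside the family, 9 and 4 lay above every control in knockout replicates 1 and 3, and 5 and 6 below. The part of atrial genes in the light chain values was not tested. The Myl3 call was lost without control replicate 1, 2 or 3 (adjusted p = 0.1, 0.113 and 0.125), while Myl2 passed without knockout replicate 1 (adjusted p = 0.0498) or 3 (0.0448). Scaled to the same sum, Myl3 did not pass (log2 fold change -1.91, adjusted p = 0.0555).

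**Figure D3:**
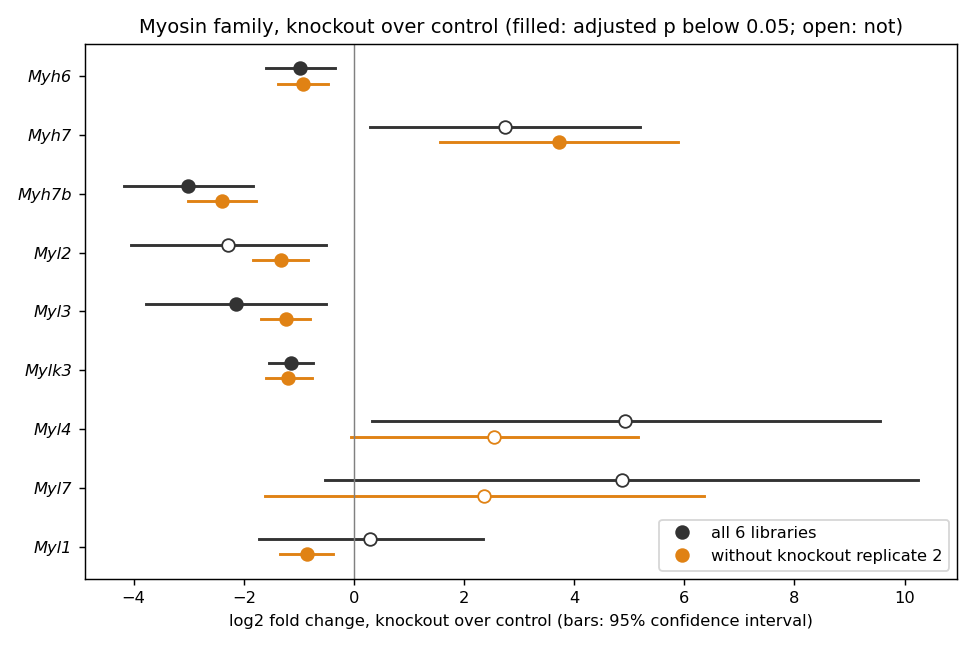
The x axis is the log2 fold change of knockout over control with its 95% confidence interval from limma, for all 6 libraries (dark) and without knockout replicate 2 (orange); filled points had an adjusted p below 0.05. Leaving out that library narrowed the intervals of Myl2, Myl3 and Myl1, moved Myl1 from 0.30 to -0.86, and left Myh6 and Mylk3 nearly in place.

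Mylk3 (XLOC_037604, chr8:85324928-85386340), whose product phosphorylates the regulatory light chain, was the member whose fall varied least between fits. It had 61.9, 81.9 and 90.4 FPKM in knockout replicates 1 to 3, against 178, 156 and 179 FPKM in control replicates 1 to 3. Every knockout was below every control, and knockout replicate 2 lay between the other knockouts. Means were 78.1 ± 14.6 FPKM in knockouts and 171 ± 13 FPKM in controls (SD, n = 3 each), and the log2 fold change was -1.14 (SE 0.17, adjusted p = 0.00299 by limma), with values of -0.88 to -1.34 in all alternatives and a call in each of them.

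The atrial light chains varied more between knockout libraries than between the groups. Myl7 (XLOC_006345, chr11:5896637-5898782) had 43.5, 911 and 0.0961 FPKM in knockout replicates 1 to 3, against 1.90, 0 and 0.313 FPKM in control replicates 1 to 3. Myl4 (XLOC_006062, chr11:104546017-104587215) had 66.1, 2290 and 3.35 FPKM in knockouts, against 4.09, 1.94 and 1.33 FPKM in controls. Knockout replicate 2 was highest for both genes, knockout replicate 1 was next, and knockout replicate 3 lay within the range of the controls. Neither gene passed, with log2 fold changes of 4.93 for Myl4 (95% confidence interval 0.32 to 9.55, limma adjusted p = 0.0892) and 4.86 for Myl7 (-0.52 to 10.24, adjusted p = 0.139). Without knockout replicate 2 these were 2.55 (adjusted p = 0.112) and 2.37 (adjusted p = 0.304), and without knockout replicate 3 both passed, at 7.16 (adjusted p = 0.0104) and 7.66 (adjusted p = 0.00695). Atrial markers outside the family followed both genes only in part. Their sum was also highest in knockout replicate 2 (1725 FPKM), but it was 333 FPKM in knockout replicate 1 and 462 FPKM in knockout replicate 3. In those 2 libraries single markers lay on both sides of the controls (above). The part of atrial RNA in these values was not tested.

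As shares of a light chain pair, the atrial forms exceeded the ventricular ones in a single library. Myl4 was 3.88%, 91.0% and 0.25% of Myl3 plus Myl4 in knockout replicates 1 to 3, against 0.132%, 0.0558% and 0.0339% in control replicates 1 to 3. Myl7 was 0.88%, 57.9% and 0.00205% of Myl2 plus Myl7 in knockouts, against 0.0178%, 0 and 0.00228% in controls. For Myl4 every knockout was above every control, though knockout replicate 3 by little, and for Myl7 the groups overlapped. The mean Myl4 share was 31.7 ± 51.4% in knockouts and 0.0738 ± 0.0513% in controls, and 2.07% in knockouts without replicate 2. The mean Myl7 share was 19.6 ± 33.2% in knockouts and 0.00669 ± 0.00968% in controls, and 0.441% in knockouts without replicate 2 (SD, n = 3 each).

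**Figure D4:**
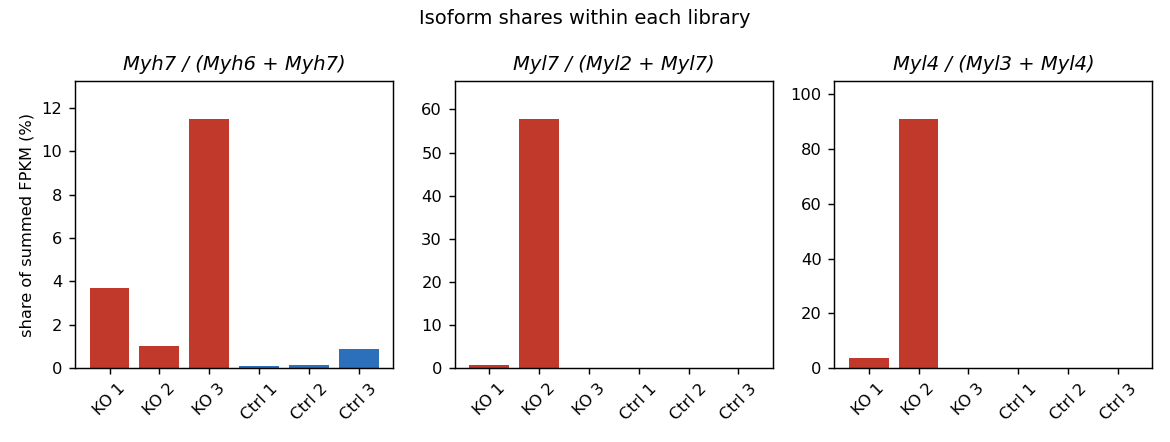
Bars give, for each library, the share of the first-named isoform in the summed FPKM of the pair, in percent from 0, with knockouts (red) left and controls (blue) right. The Myh7 share is highest in knockout replicate 3 (11.5%), while the Myl7 and Myl4 shares are highest in knockout replicate 2 (57.9% and 91.0%).

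The libraries highest in atrial light chains and in beta myosin were not the same. Knockout replicate 2, with most Myl4 and Myl7, had the lowest Myh7 of the knockouts, and knockout replicate 3, with least Myl4 and Myl7, had the highest. Regulatory light chains summed to 4940, 1573 and 4683 FPKM in knockout replicates 1 to 3 and 10659 to 13757 FPKM in controls. Essential light chains summed to 1722, 2708 and 1352 FPKM in knockouts and 3135 to 3958 FPKM in controls. In knockout replicate 2 the essential chains thus exceeded the regulatory ones, as in no other library. All 9 genes together held 1.94%, 1.47% and 1.84% of all FPKM in knockouts and 3.59%, 3.60% and 3.88% in controls.

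Myl1 (XLOC_002217, chr1:66924295-66947932) had 18.9, 192 and 14.6 FPKM in knockout replicates 1 to 3, against 26.4, 38.9 and 27.7 FPKM in control replicates 1 to 3. It was high only in knockout replicate 2, and the other knockouts lay below every control. The log2 fold change of 0.30 (95% confidence interval -1.73 to 2.34, limma adjusted p = 0.808) turned to -0.86 without that library (SE 0.20, adjusted p = 0.0167). Skeletal muscle markers were low throughout but not all flat. Tnnt3, a fast skeletal troponin, had 3.21 FPKM in knockout replicate 2 and at most 0.677 FPKM elsewhere. Actn3 (0.256 FPKM) and Atp2a1 (0.549 FPKM, against at most 0.529 FPKM in controls) were also above every control in that library. Actn3 was above every control in knockout replicates 1 and 3 too (0.0449 and 0.0496 FPKM). Mylpf was at 0.37 FPKM in knockout replicate 2, within the range of controls, and Myh4 was at 0 in all libraries. Only 2 of the markers passed the filter, Tnni2 and Mybpc2, and both were lower in knockouts, beside 19.5% of all loci. Their log2 fold changes were -1.36 and -1.37 (limma adjusted p = 0.00366 and 0.0183). In knockout replicate 2 they had 0.459 and 0.703 FPKM, below every control. The 13 markers summed to 1.98 to 5.80 FPKM in knockouts and 4.86 to 7.86 FPKM in controls, and their part in the Myl1 value was not tested.

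In other myosins, sarcomeric heavy chains of skeletal and developing muscle were hardly present. None of the 7 listed (Myh1, Myh2, Myh3, Myh4, Myh8, Myh13 and Myh15) passed the filter, and they summed to at most 0.127 FPKM in knockouts and 0.0437 FPKM in controls. Of the 8 tested chains of non-muscle and smooth muscle myosin II, 2 rose and none fell, with a median log2 fold change of 0.20. Over all loci 16.1% rose and 19.5% fell. Leaving out knockout replicate 2, 3 rose (Myl12a in addition) and none fell, with a median of 0.14. Myh10, the non-muscle IIB heavy chain, averaged 12.4 FPKM in knockouts and 5.27 FPKM in controls (log2 fold change 1.13, limma adjusted p = 0.00493). Myl6, an essential light chain of non-muscle and smooth muscle myosin, averaged 139.8 FPKM in knockouts and 73.3 FPKM in controls (log2 fold change 0.93, limma adjusted p = 0.00311). Fibroblast markers rose beside them at 5 of 8 loci, summing to 381 to 673 FPKM in knockouts and 335 to 410 FPKM in controls. Macrophage markers rose at 5 of 8 loci, summing to 201 to 219.5 FPKM in knockouts and 138 to 152 FPKM in controls. Leaving out knockout replicate 2, 4 of 8 rose in each list. No marker of either list was at 0 in any library, and the part of these cells in the 2 rises was not tested. Of 8 smooth muscle markers 1 fell (Smtn) and none rose, and of 8 endothelial markers none passed. In the fit without knockout replicate 2, Des rose (0.59, limma adjusted p = 0.0207) and the endothelial Tek fell (-0.42, adjusted p = 0.0374).

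Among enzymes that set light chain phosphorylation other than Mylk3, Mylk, the smooth muscle kinase, was lower (log2 fold change -0.55, limma adjusted p = 0.0488), a call lost without knockout replicate 2 (-0.37, adjusted p = 0.0739). The sister kinase gene Mylk4 did not pass. Of 4 phosphatase genes, only Ppp1r12b, a myosin-targeting subunit of muscle, fell, to 33.7 FPKM in knockouts, against 56.6 FPKM in controls (log2 fold change -0.74, limma adjusted p = 0.0037). Over all loci 19.5% fell and 16.1% rose by the same test, so these counts are not read as a result about the enzymes. The catalytic subunit Ppp1cb averaged 82.5 FPKM in knockouts and 92.8 FPKM in controls (log2 fold change -0.17, adjusted p = 0.315).

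Of 6 tested partners of myosin in the thick filament 3 fell and none rose, among them Mybpc2 and Obsl1, with log2 fold changes of -1.37 and -0.96 (limma adjusted p = 0.0183 and 0.00381), and the list's median was -0.49. In the fit without knockout replicate 2 the counts were the same, with a median of -0.33. Cardiac myosin-binding protein C (Mybpc3) had 759, 363 and 1092 FPKM in knockout replicates 1 to 3, against 703, 845 and 928 FPKM in control replicates 1 to 3 (log2 fold change -0.29, adjusted p = 0.587). Its groups overlapped, whereas those of Myh6, Myl2 and Myl3 did not. Ttn was listed at 0 in 4 libraries, which can be a failed estimate, and Mybphl, an atrial thick filament protein, stood at 141 FPKM in knockout replicate 2 and at most 6.54 FPKM elsewhere. Of 9 myosin folding and turnover factors, 4 fell and 2 rose, with or without knockout replicate 2. Beside these 2 lists, 19.5% of all loci fell and 16.1% rose, or 19.6% and 17.7% without that library. Unc45b, the muscle myosin chaperone, fell to 29.5 FPKM in knockouts, against 62.5 FPKM in controls (log2 fold change -1.08, limma adjusted p = 0.00189). Hspb1, a small heat-shock protein, rose by 0.82 on the log2 scale (adjusted p = 0.0272) and Trim54, a muscle ubiquitin ligase, by 0.77 (adjusted p = 0.0495).

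Regulators known to act on the myosin isoform genes were tested from a list of 26, of which 22 passed the filter. Of these, 6 fell (Rxrg, Hdac9, Thrb, Sox6, Rxra and Med13), none rose and 16 did not pass, with a median log2 fold change of -0.15. Over all loci 19.5% fell and 16.1% rose by the same test, or 19.6% and 17.7% without knockout replicate 2. In the fit without knockout replicate 2, 8 fell (Thra and Tbx5 in addition), 1 rose (Rcan1, a calcineurin regulator, 0.85, limma adjusted p = 0.0123) and 13 did not pass, with a median of -0.31. Some of them act in thyroid hormone signalling, which is known to drive Myh6 and repress Myh7, and their part in the values of these 2 genes was not tested. Thrb, a thyroid hormone receptor, averaged 2.17 FPKM in knockouts and 5.27 FPKM in controls (log2 fold change -1.11, limma adjusted p = 0.0012), and Rxrg, a retinoid X receptor, averaged 11.0 FPKM in knockouts and 32.1 FPKM in controls (-1.54, adjusted p = 0.00263). Hdac9, a class II histone deacetylase, averaged 2.98 FPKM in knockouts and 7.72 FPKM in controls (-1.25, adjusted p = 0.00166). Sox6 and Med13, reported in mice as targets of the myosin microRNAs, had log2 fold changes of -0.88 (adjusted p = 0.00392) and -0.66 (adjusted p = 0.00497). Tead1, Mef2c, Gata4, Srf and Nkx2-5 did not pass, with log2 fold changes of -0.16, -0.32, 0.26, 0.05 and 0.02.

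Other muscle genes give the scale for these changes, beside 19.5% of all loci lower and 16.1% higher (19.6% and 17.7% without knockout replicate 2). Of 14 cardiomyocyte markers 8 fell, none rose and 6 did not pass (median log2 fold change -0.84, or -0.69 with the same counts without knockout replicate 2), led by myoglobin, Mb (-1.94, limma adjusted p = 0.0143), and the calcium release channel Ryr2 (-1.79, adjusted p = 0.000497). Of 10 ventricular markers 6 fell and none rose (median -0.97, or -0.76 with the same counts without knockout replicate 2), led by the calcium pump inhibitor Pln, which averaged 362 FPKM in knockouts and 2309 FPKM in controls (-2.81, adjusted p = 0.00219). Of 11 tested fetal and stress genes 5 rose and 2 fell (median 0.88), and without knockout replicate 2 Xirp2 rose as well (6 higher, 2 lower, median 0.67). Nppa, the atrial natriuretic peptide, had 1948, 10527 and 2327 FPKM in knockouts, against 56.4, 40.6 and 119.5 FPKM in controls, and so was high in all knockouts, unlike Myl7 (log2 fold change 5.79, limma adjusted p = 0.00109). Ankrd1, a stress-responsive sarcomere protein, averaged 1784 FPKM in knockouts and 293 FPKM in controls (2.69, adjusted p = 0.00209). The natriuretic peptide gene Nppb, which is made in stressed ventricle, had 750.3, 404 and 1133 FPKM in knockout replicates 1 to 3, against 25.3, 113 and 165 FPKM in control replicates 1 to 3 (3.16, adjusted p = 0.0117). As with Myh7, knockout replicate 3 was highest and knockout replicate 2 lowest among knockouts, and control replicate 3 was highest among controls.

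The loci nearest in pattern to a member were found by the root mean square distance between log2(FPKM + 0.5) profiles over the 6 libraries, each centred on its own mean, among 10421 tested protein-coding loci. Nearest to Myh6 were Isoc2a, Sdhc, Coq2, Cd28 and Tmem50b, at 0.08 to 0.09 log2 units. Cd28 was low, at 0.255 to 0.417 FPKM in knockouts and 1.17 to 1.21 FPKM in controls, where the added 0.5 shrinks a change. Nearest to Myl3 was Myl2, at 0.11, ahead of Slc25a34, Tesc, Fhl2 and Plin5 at 0.30 to 0.35. Nearest to Myl7 was Myl4, at 0.74, and the next, Dkk3, was at 2.01. Among the 5 loci nearest to Myh7 were Lcn2, Nppb, Fgf21 and Gsta1, at 0.94 to 1.00. The nearest locus to a light chain was thus the other light chain of the same chamber, in both cases searched.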

How the data were processed

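Total RNA libraries of whole hearts (3 knockout, 3 control) were made with TruSeq chemistry after Ribo-Zero depletion, per the labels. The deposited values are FPKM per locus, computed by the authors. For alignment and assembly the submitters' processing notes list, with no role or order, StringTie 1.1.0, HISAT 0.1.6, HISAT2 2.0.1 and the build GRCm38, and further Cufflinks 2.2.1, Cuffdiff, Picard 1.23, bedtools, SAMtools 1.3. Strand use and scaling between libraries are not stated there. No count test or counting interval can rest on these values.

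Values were analysed as log2(FPKM + 0.5), unscaled, at the 12181 loci reaching 1 FPKM in 3 or more libraries, with limma 3.58.1 in R 4.3.3 (mean-variance trend, two-sided, Benjamini-Hochberg, threshold 0.05). Fold changes on this scale understate changes of low genes. The test was checked on simulated data with 100 loci changed 2-fold and 100 changed 4-fold, far fewer than the 35.7% called here. It recovered 59% of the 2-fold and 91% of the 4-fold changes, and 3.85% of its calls were false. A gene that did not pass may thus still differ by 2-fold or by more. Among the members that did not pass, Myl4 and Myl7 had log2 fold changes of 4.93 and 4.86, with uneven knockout libraries. Isoform shares were computed within each library, untested. The labels do not say that samples came from separate animals, so p-values measure the spread between samples. No 2 libraries were identical.

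Members and gene lists were chosen with earlier results of these data known, and promoter motifs after the windows were read. The naming rule took all 9 members, up to 3 called genes of greatest fold change per list, or the 2 most abundant where none was called, and the 5 loci nearest in pattern to Myh6, Myh7, Myl3 and Myl7. Mylk4, Ppp1cb, Mybpc3, Ttn, Mybphl, Sox6, Med13, Rxra, the regulators that did not pass and single markers (Sln, Hamp, Bmp10, Kcnj3, Kcnj5, Mylpf, Tnnt3, Actn3, Atp2a1, Myh4, and those named for the fit without knockout replicate 2) were chosen after their values were seen. A few genes that the rule or the lists hold are not reported here. Relative depth is the most frequent ratio of values under 1 FPKM at 374 to 425 pseudogene and small RNA loci. Positions and sequences are from RefSeq (GRCm38.p6). Alternatives covered pseudocount, filter, scaling, variance model, a replicate block and leaving out each library.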

Additional observations from a re-analysis of the deposited data

How the results depend on the processing

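The number of members higher was 1 with libraries scaled to equal sums (Myh7), 1 with those sums taken without mtDNA-encoded loci (Myh7), 1 with the replicate block (Myh7), 3 with array weights (Myh7, Myl4 and Myl7), and 0 to 2 with 1 library left out. The number lower was 2 with no filter and 2 after quantile normalization (Myh7b and Mylk3 in both), and 2 to 6 with 1 library left out. Over all loci, 3229 were higher and 1400 lower when scaled to equal sums, 3378 and 1282 with sums without mtDNA-encoded loci, and 1212 to 2153 and 1409 to 2389 with 1 library left out. With array weights they were 2857 and 3367. The 2 scalings moved the median of all loci to 0.20 and 0.23. The direction of every member held in every alternative except for Myl1, which was at -0.58 with array weights and -0.86 without knockout replicate 2 (-0.86 to 0.98 with 1 library left out). Myh7b and Mylk3 were called in every alternative that tested them. With at least 1 FPKM in all 6 libraries, Myh7b and Myl7 were not tested. Leaving out a replicate, the mean Myh7 share ranged from 2.37 to 7.63% in knockouts and 0.153 to 0.523% in controls, the Myl7 share from 0.441 to 29.4% and 0.00114 to 0.01%, and the Myl4 share from 2.07 to 47.5% and 0.0448 to 0.0937%. Replicate numbers are not stated to pair the samples. The deviations of same-numbered libraries from their group means had correlations of -0.0829, -0.0641 and -0.00632, and those of other-numbered ones -0.0803 to 0.124. With 3 libraries a group, such values cannot show that the samples were not paired. With the replicate block 1536 loci were higher and 1807 lower, Myh7 passed (adjusted p = 0.0103) and Myh6 did not (0.0856). The causes of these shifts were not tested. With 3 libraries a group and no stated depth, levels under 1 FPKM are uncertain.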
